A study of Mus musculus with 6 samples.

Results

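The 39 genes described here encode the actin cytoskeleton and the actomyosin machinery of the cell, and they were taken by name from a table of 47455 gene symbols. They comprise the cytoplasmic actins, the proteins that supply, nucleate, cap, cut and bundle filaments, the tropomyosins, non-muscle myosin II, and adhesion proteins that sit on actin. All 39 were found, and 38 had enough counts to be tested, the exception being the villin gene Vil1. The RNA came from the whole epidermis of 3 mice, of strain C57BL/6 and 6 to 8 weeks old. A 3 mm punch made 8 wounds in the back of each animal, and tissue was taken 2 h later. Each mouse gave 1 library of wounded and 1 of non-wounded tissue, called here W1 to W3 and N1 to N3 by mouse. The comparison asks how transcripts of the actin machinery stood in epidermis shortly after damage.

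Actin is a globular protein that polymerises into polar filaments. Profilin and thymosins bind the monomer, the Arp2/3 complex starts branches, formins and Ena/VASP proteins lengthen filaments, and cofilin with its partner Aip1 takes them apart. Myosin II pulls on filaments that tropomyosins coat, and vinculin, zyxin and their relatives tie the filaments to adhesions. Keratinocytes at a wound edge use this machinery to change shape and crawl. Actin monomer binds the coactivator MRTF, and MRTF freed from it acts with serum response factor (SRF) on many actin genes.

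SRF binds a short motif called the CArG box. It was searched for in promoter windows of 300 bases, from 250 before to 50 after the gene start, in RefSeq's table for GRCm38.p6. The reverse complement of a CArG box is again a CArG box, so 1 search covers both strands. Of the 39 genes, 37 were in that table, and 7 of them (18.9%) held a box, against 1.81% of the 27025 genes in the table. The 7 stretches are shown because the motif belongs to the textbook regulator of these genes. The box is in capitals with 20 bases on either side, 5′ to 3′ on the strand of the gene.
Vcl: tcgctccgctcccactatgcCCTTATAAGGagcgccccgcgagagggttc
Actg1: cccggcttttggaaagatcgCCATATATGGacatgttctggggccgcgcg
Cnn2: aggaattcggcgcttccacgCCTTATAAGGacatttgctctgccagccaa
Lima1: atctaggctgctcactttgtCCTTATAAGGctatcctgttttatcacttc
Myl6: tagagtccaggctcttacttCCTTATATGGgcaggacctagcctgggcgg
Myl9: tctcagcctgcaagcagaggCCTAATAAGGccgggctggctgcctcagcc
Vil1: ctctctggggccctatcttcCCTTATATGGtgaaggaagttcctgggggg
The Vcl stretch lies at chr14:20929151-20929200 on the plus strand, with its box beginning 227 bases before the RefSeq start. The Actg1 stretch is at chr11:120348556-120348605 on the minus strand, 90 bases before the start, and the Cnn2 stretch at chr10:79988524-79988573 on the plus strand, 56 bases before it. The Lima1 stretch is at chr15:99820167-99820216 and the Myl6 stretch at chr10:128493030-128493079, both on the minus strand, 47 and 50 bases before a RefSeq start that lies inside the longer gene of the GENCODE M21 annotation. The Myl9 stretch is at chr2:156775283-156775332 and the Vil1 stretch at chr1:74409291-74409340, both on the plus strand, 161 and 73 bases before the start. Vcl, Cnn2 and Lima1 hold the same box letters. Of the 7 genes, Vcl and Actg1 were called higher in wounded epidermis, Cnn2 was called lower, Lima1, Myl6 and Myl9 were not called, and Vil1 was not tested. Of the members in that table without a box, 17 were called higher. Among the 38 tested members 55.3% were called higher and 5.26% lower, beside 24.0% and 24.4% of all genes. A match describes letters, not binding.

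Levels are CPM, counts relative to library size after TMM scaling, given per library or as mean ± SD over 3 libraries. A gene was called when its Benjamini-Hochberg adjusted p in edgeR's quasi-likelihood test over 16079 genes was under 0.05. Log2 values compare wounded with non-wounded tissue and carry a standard error (SE). The libraries held 20746378 to 26815028 counts. Keratinocyte markers summed to between 27829 and 35303 CPM over 7 genes in all 6, with 3 of the 7 called higher and 1 lower. Fibroblast markers, with 6 of 7 tested called higher, summed to 10.4 to 12.5 CPM in non-wounded and 39.1 to 76.1 CPM in wounded libraries. In bulk RNA such as this, fewer cells of a type and less RNA per cell cannot be told apart.

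How the libraries are scaled decides most of the calls. Relative to TMM, the log2 value of a gene moved by a median of -0.32 with scaling to library totals, by -0.15 with upper-quartile factors, by -0.30 on log2(TPM + 1) and by 0.02 with RLE factors. Under TMM, 23 of the 38 tested genes were called (60.5%, against 48.4% of all genes). Of these, 21 were higher in wounded epidermis (55.3%, against 24.0% of all genes) and 2 were lower (5.26%, against 24.4%). The median log2 value of the 38 was 0.29, beside -0.03 for all genes. With library totals 8 were higher and 6 lower, beside 13.5% and 41.4% of all genes (54.9% called). On log2(TPM + 1) 6 were higher and 7 lower, beside 12.1% and 34.6% (46.7% called). Upper-quartile factors gave 14 and 5, beside 18.5% and 31.4%. As a share of all counts the 39 genes made up 1.65%, 1.63% and 1.75% in N1 to N3. In W1 to W3 they made up 1.69%, 1.71% and 1.78%, slightly higher after wounding in each mouse. By TPM the share was 1.44%, 1.40% and 1.49% and then 1.43%, 1.45% and 1.51%, lower in mouse 1. Of the counts, Actb and Actg1 together went from 0.741% ± 0.0254 to 0.822% ± 0.0193. The other 37 genes went from 0.898%, 0.920% and 0.993% to 0.883%, 0.896% and 0.933%, lower in each mouse.

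Other fits changed the picture less. With the mouse as a block, called the paired fit here, 25 members were higher and 4 lower, beside 26.2% and 27.1% of all genes (53.3% called). DESeq2 gave 22 and 2, beside 21.1% and 20.2% (41.3% called), and RLE factors gave 21 and 2, beside 24.6% and 23.7% (48.3% called). The 3 wounded libraries did not overlap the 3 non-wounded ones in 27 of 38 members (71.1%, against 58.5% of all genes). At 1.5-fold or more, 9 members were called higher and 1 lower, beside 15.9% and 18.0% of all genes.

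**Figure D1:**
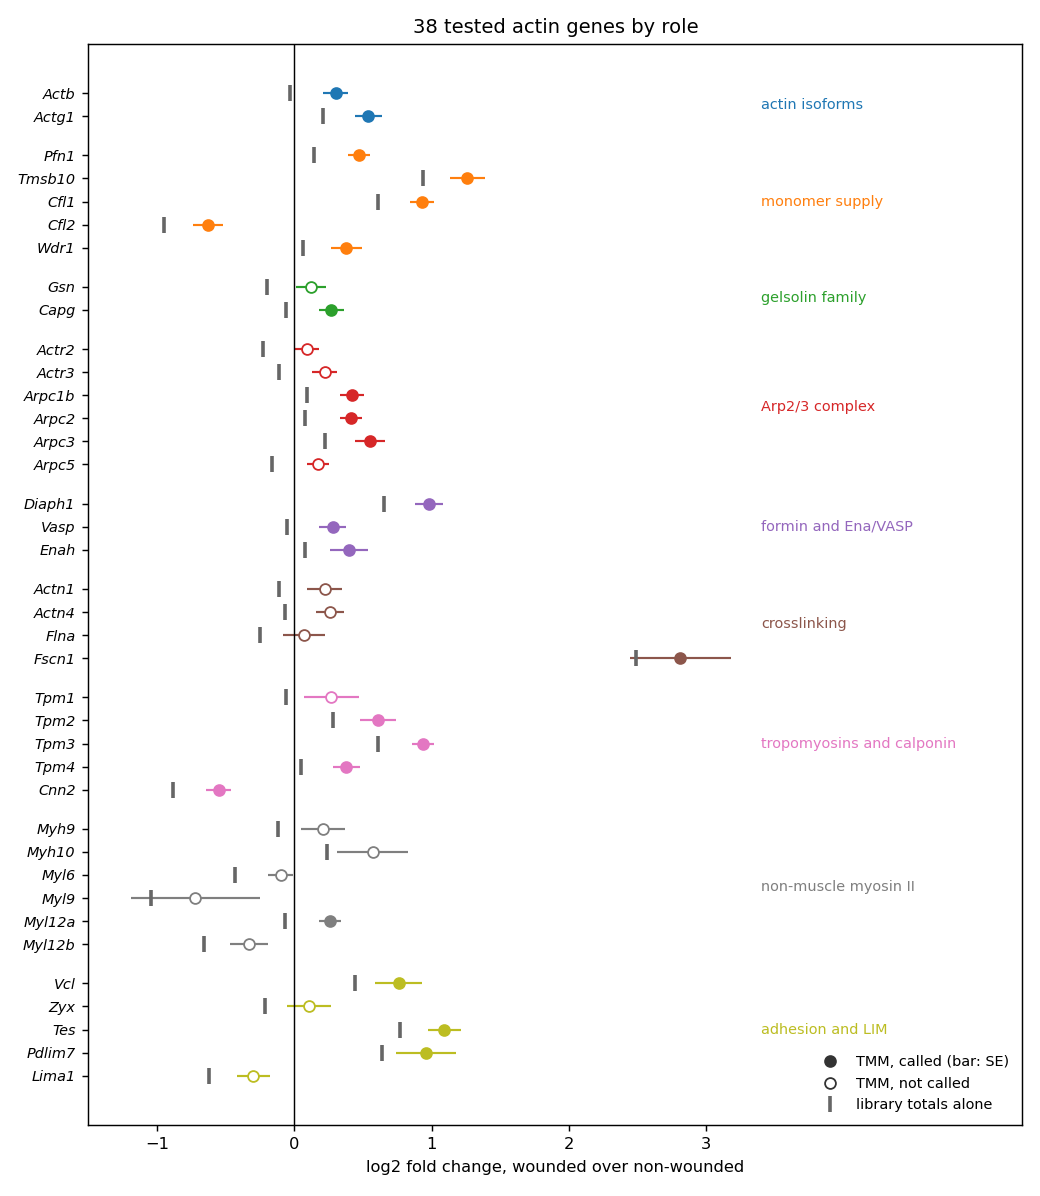
Log2 fold change of the 38 tested actin genes, wounded over non-wounded, on the x axis, with genes grouped by role on the y axis. Circles give the TMM value with its SE as a bar, filled when called, and grey ticks the value with library totals. Fscn1 stands far to the right at 2.81, and the ticks lie to the left of the circles.

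A set of 8 genes was called in the same direction under all 5 scalings and with any single library left out. Tmsb10, Cfl1, Diaph1, Fscn1, Tpm3 and Tes rose, and Cfl2 and Cnn2 fell. The 6 that rose are 15.8% of the tested members, near the 11.9% of genes tested in every scaling that were called higher in all 5, while 23.7% were called lower in all 5. In each of the 8 the wounded and non-wounded libraries did not overlap, as in 58.5% of all genes. Genes selected for calls in all these fits are likely to show this.

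**Figure D2:**
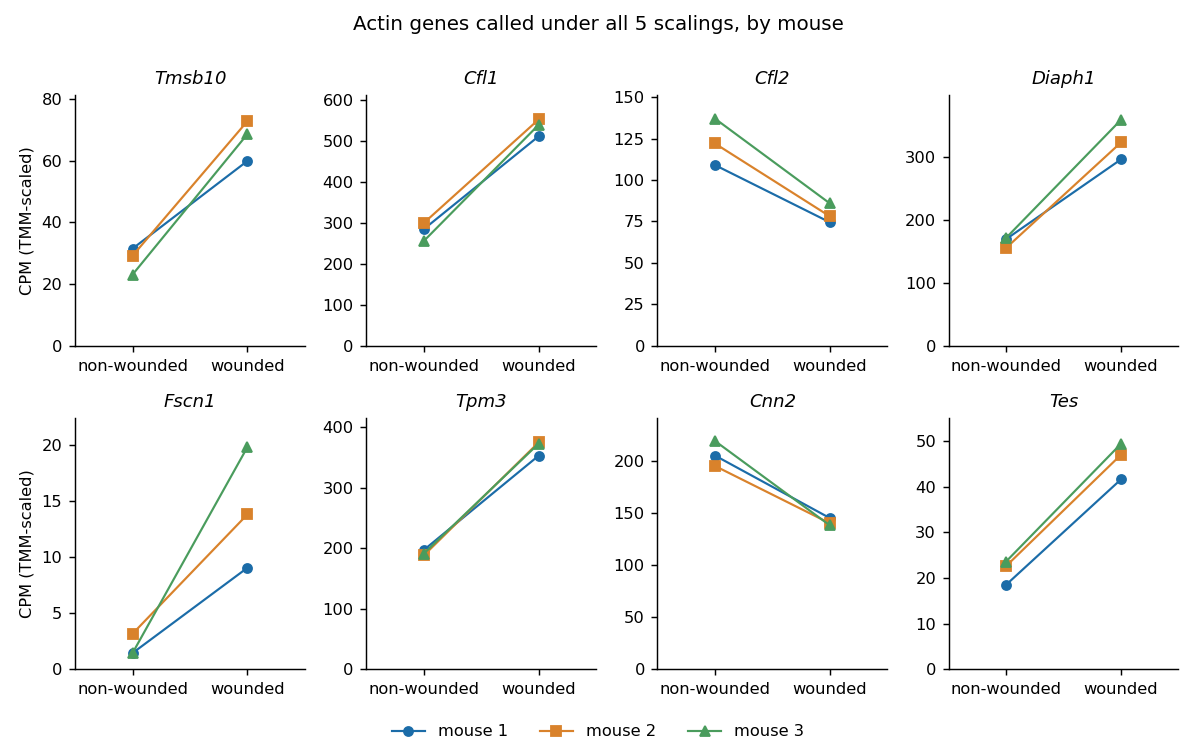
CPM (y axis, TMM-scaled, from 0) of the 8 genes called under all 5 scalings in non-wounded and wounded epidermis (x axis), with 1 line per mouse. All 3 lines rise for Tmsb10, Cfl1, Diaph1, Fscn1, Tpm3 and Tes and fall for Cfl2 and Cnn2.

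The cytoplasmic actins were the most abundant members. Actg1 encodes gamma-actin and Actb beta-actin, and the proteins are nearly identical. On the per-length TPM scale they averaged 4173 and 3353 over the 6 libraries, followed by Myl6 at 845. Actg1 stood at 4928, 4593 and 4925 CPM in N1 to N3 and at 6749, 6944 and 7248 CPM in W1 to W3. The groups did not overlap, and Actg1 was called (log2 0.54, SE 0.10, adjusted p = 0.00117). Actb stood at 1798, 1787 and 1853 CPM and then at 2302, 2189 and 2192 CPM (log2 0.30, SE 0.09, adjusted p = 0.0185). Under TMM all wounded libraries were higher for Actb, but with library totals its value was -0.03 and on log2(TPM + 1) it was -0.07. Actg1 kept its direction with library totals at 0.21 but was not called (adjusted p = 0.0811, range over the alternatives 3.56e-08 to 0.334). Actb lost its call when W1 or W2 was left out (adjusted p = 0.0665 and 0.0625, range 0.00247 to 0.814). Summed, the pair changed by log2 0.47 (SE 0.10, adjusted p = 0.00231).

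The balance between the actins does not depend on how libraries are scaled to each other. Actg1 made up 54.1%, 52.6% and 53.0% of the TPM of the pair in N1 to N3 and 55.7%, 57.0% and 59.9% in W1 to W3. The share of gamma-actin was higher in the wounded library of each mouse, and the groups did not overlap. The ratio of Actg1 to Actb counts went from 2.66 ± 0.0857 to 3.14 ± 0.190, in a comparison chosen after its values were seen. An exact two-sided permutation test of the log2 ratio gave p = 0.1, the smallest that 3 against 3 libraries allow, and so did all 11 ratios computed (adjusted p = 0.1). Which actin is the more abundant is uncertain. Actg1 had 32.6 counts per TPM unit and Actb 14.0, although the longest annotated transcripts are 1952 and 1920 bases. The counts of neither gene are whole in every library, so some of their reads were divided by estimation. The change in their balance is uncertain for that reason too.

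Among the genes of monomer supply and filament turnover, 4 of 5 were called higher under TMM and 1 lower, with Wdr1 changing sign on log2(TPM + 1). Tmsb10 encodes thymosin beta 10, which binds actin monomer. Located at chr6:72957347-72958748 of GRCm38, it stood at 31.5, 29.2 and 23.1 CPM in N1 to N3 and 59.9, 72.8 and 68.6 CPM in W1 to W3. All wounded libraries were above all non-wounded ones, a 2.40-fold rise (log2 1.26, SE 0.13, adjusted p = 4.26e-05). The abundant paralog Tmsb4x, named after its values were seen, stood at 740 ± 102 and 598 ± 70.0 CPM and was not called (log2 -0.31, SE 0.13, adjusted p = 0.0658). It was called lower in the paired fit (adjusted p = 0.00612), by DESeq2 (adjusted p = 0.0402) and under 3 of the 5 scalings, with log2 -0.63 for library totals, -0.45 for upper-quartile factors and -0.66 for log2(TPM + 1) (range of adjusted p 0.00177 to 0.197).

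The cofilin genes moved apart. Cfl1, the ubiquitous non-muscle cofilin at chr19:5490455-5495201, rose 1.91-fold from 285, 300 and 256 to 512, 553 and 540 CPM (log2 0.93, SE 0.09, adjusted p = 3.15e-05). Cfl2, best known as the cofilin of muscle and located at chr12:54858809-54862877, fell from 109, 122 and 137 to 74.5, 78.1 and 85.9 CPM (log2 -0.63, SE 0.11, adjusted p = 0.000890). Neither gene's groups overlapped. Within a library, the ratio of Cfl1 to Cfl2 counts was 2.61, 2.45 and 1.87 in N1 to N3 and 6.87, 7.08 and 6.29 in W1 to W3. It was higher after wounding in every mouse, by log2 1.40, 1.53 and 1.75. Since Cfl1 rose and Cfl2 fell without overlap, the ratio had to separate the groups. Its exact permutation p of 0.1, the smallest possible, therefore adds nothing to the values of the 2 genes. By TPM, Cfl2 made up 15.2% ± 2.37 of the cofilin total in non-wounded and 5.75% ± 0.327 in wounded libraries. Skeletal muscle markers were higher in wounded libraries, with 4 of 7 tested called and a sum of 5.04 to 5.80 CPM before and 13.5 to 18.1 CPM after, and their part in the cofilin values was not tested.

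Pfn1 encodes profilin 1, which hands monomers to growing ends, and Wdr1 encodes Aip1, the partner of cofilin. Pfn1 went from 156 ± 2.41 to 216 ± 12.7 CPM (log2 0.47, SE 0.08, adjusted p = 0.00122). Wdr1 went from 189 ± 16.8 to 246 ± 26.8 CPM under TMM (log2 0.38, SE 0.11, adjusted p = 0.0128) and was at -0.01 on log2(TPM + 1). Neither was called with library totals, at log2 0.14 and 0.06. Wdr1 also lost its call when W3 was left out (adjusted p = 0.0536, range 0.00167 to 0.971).

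**Figure D3:**
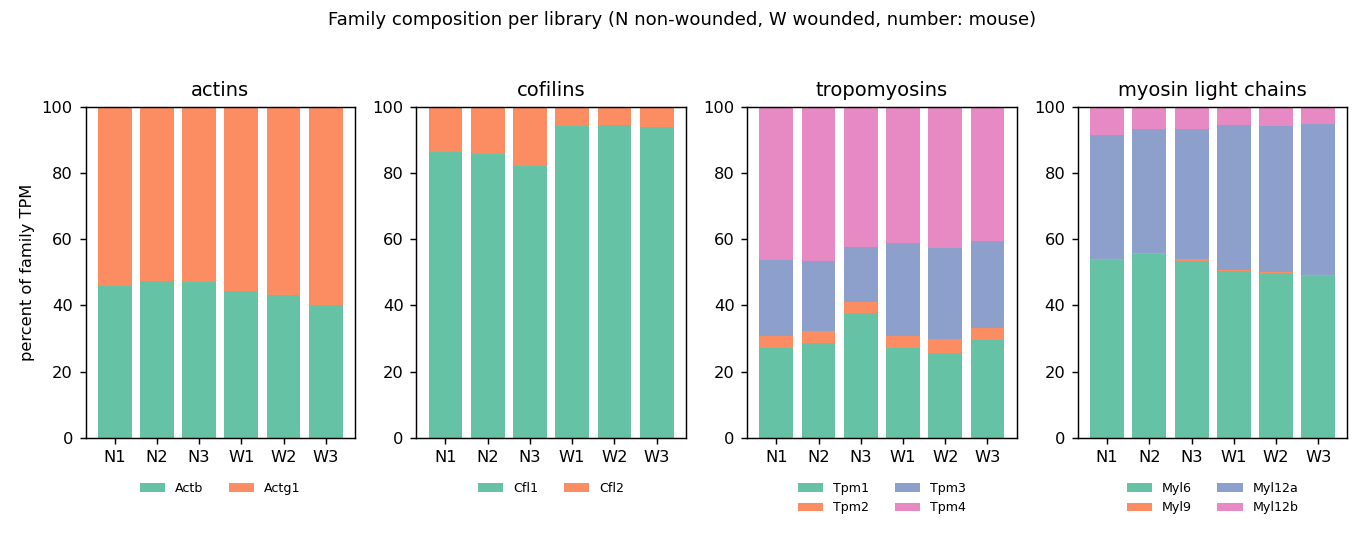
Percent of each family's summed TPM (y axis, per-length scale) held by each gene in every library (x axis, N non-wounded and W wounded with the mouse number). The shares of Actg1, Cfl1, Tpm3 and Myl12a are larger in all 3 wounded libraries, and that of Tpm1 is largest in N3.

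Of the gelsolin family, Capg was called under TMM and Gsn was not. Gsn encodes gelsolin, which severs filaments and caps their fast-growing ends, and had a rank of 5 among the members by TPM. It stood at 1252, 1399 and 1261 CPM in N1 to N3 and 1374, 1596 and 1283 CPM in W1 to W3. The groups overlapped, and Gsn was not called (log2 0.12, SE 0.11, adjusted p = 0.387). Capg, encoding a relative that caps without severing, went from 102 ± 8.79 to 123 ± 5.23 CPM under TMM (log2 0.27, SE 0.09, adjusted p = 0.0357) and was at -0.06 with library totals. That call ended when N1, W1, W2 or N3 was left out (adjusted p = 0.0536, 0.0610, 0.152 and 0.122, range 0.0161 to 0.914). Vil1 encodes villin, the bundling and severing protein of brush borders. It had 1, 2 and 0 counts in N1 to N3 and 7, 0 and 11 counts in W1 to W3, too few to test.

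The Arp2/3 complex nucleates branched actin, and 6 of its subunit genes are members. Under TMM 3 of them were called higher, each by under 1.5-fold, and none lower. Arpc3 went from 93.0 ± 7.92 to 136 ± 14.0 CPM (log2 0.55, SE 0.11, adjusted p = 0.00172). Arpc1b went from 68.2 ± 5.42 to 91.2 ± 2.74 CPM (log2 0.42, SE 0.09, adjusted p = 0.00409). Arpc2 went from 316 ± 13.3 to 420 ± 15.0 CPM (log2 0.41, SE 0.08, adjusted p = 0.00274). In all 3 the groups did not overlap. The actin-related proteins Actr2 and Actr3 and the subunit Arpc5 were not called, at log2 0.09 (SE 0.09), 0.22 (SE 0.09) and 0.17 (SE 0.08), and all 3 changed sign with library totals. Actr3 was called in the paired fit (adjusted p = 0.0327) and with N3 left out (adjusted p = 0.0486, range 0.0327 to 0.876). With library totals no subunit was called higher, and Actr2 was called lower at log2 -0.23 (adjusted p = 0.0474), as on log2(TPM + 1) at -0.24 (adjusted p = 0.0466, range 0.0466 to 0.822). The summed TPM of the 6 was 1232 ± 2.39 in non-wounded and 1246 ± 53.5 in wounded libraries. Arpc1b overlaps Pdap1 on the other strand, which had a mean of 1893 counts against 1846, and strand use is not stated.

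Among the elongation factors, the formin gene changed most. Diaph1 encodes mDia1, a formin that lengthens unbranched filaments, and lies at chr18:37843601-37935476. It stood at 170, 156 and 172 CPM in N1 to N3 and 297, 324 and 360 CPM in W1 to W3, with no overlap, a 1.97-fold rise (log2 0.98, SE 0.10, adjusted p = 3.04e-05). The Ena/VASP genes Vasp and Enah moved less under TMM, at log2 0.28 (SE 0.10, adjusted p = 0.0363) and 0.40 (SE 0.14, adjusted p = 0.0345), and Vasp was at -0.05 with library totals. Vasp lost its call with N2, W2, N3 or W3 left out (adjusted p = 0.112, 0.106, 0.123 and 0.0884, range 0.0162 to 0.707). Enah lost its call with N1, N2, N3 or W3 left out (adjusted p = 0.0806, 0.0731, 0.0878 and 0.106, range 0.00950 to 0.915). Enah was highest in W3, at 74.4 CPM beside 55.0 and 50.5 CPM in W1 and W2.

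Fscn1 had the largest change of the 38 genes. It encodes fascin, which packs filaments into the tight bundles of filopodia and is also known as a marker of mature dendritic cells. Located at chr5:142960343-142973185, Fscn1 stood at 1.44, 3.16 and 1.44 CPM in N1 to N3 and 9.04, 13.8 and 19.8 CPM in W1 to W3. Every wounded library was above every non-wounded one, a 7.02-fold rise (log2 2.81, SE 0.37, adjusted p = 0.000161) on 38, 83 and 35 counts before and 193, 329 and 367 after. With single libraries left out, the log2 value of Fscn1 lay between 2.50 and 3.29, and on log2(TPM + 1) it was 1.68. Of the macrophage and Langerhans cell markers, 4 of 7 tested were higher and 2 lower, and their sum went from 872 to 914 CPM up to 1409 to 1665 CPM. The largest part of that rise was Epcam, at 189 ± 28.4 and 567 ± 91.1 CPM. Cd207, the langerin gene, stood at 73.0 ± 14.1 and 260 ± 26.3 CPM and was higher by log2 1.83. Cd74, at 528 ± 15.4 and 625 ± 80.8 CPM, was not called. Csf1r was lower at log2 -1.20 and Adgre1 at -0.85. The part of such cells in the Fscn1 value was not tested.

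The other crosslinkers were not called. Actn4 and Actn1 encode the non-muscle alpha-actinins, and Flna encodes filamin A, which joins filaments into nets. Actn4 stood at 672 ± 76.1 and 803 ± 35.9 CPM (log2 0.26, SE 0.10, adjusted p = 0.0647) and Actn1 at 152 ± 12.9 and 176 ± 32.8 CPM (log2 0.22, SE 0.13, adjusted p = 0.197). Actn4 was called in the paired fit (adjusted p = 0.0169), with N3 left out (adjusted p = 0.0221) and by DESeq2 (adjusted p = 0.0416, range 0.0169 to 0.907). Flna stood at 359, 407 and 542 CPM and then at 444, 405 and 526 CPM, with overlapping groups (log2 0.07, SE 0.15, adjusted p = 0.729). The highest Flna value in each group was that of mouse 3.

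Tropomyosins coat filaments and set which proteins can bind them. Tpm3, at chr3:90072649-90100902, rose 1.91-fold from 197, 188 and 191 to 353, 375 and 373 CPM (log2 0.94, SE 0.08, adjusted p = 1.43e-05). The replicates were tight and the groups did not overlap. Tpm4, the most abundant of the 4 by TPM, went from 617 ± 55.3 to 802 ± 40.9 CPM (log2 0.38, SE 0.10, adjusted p = 0.00945). Tpm2 went from 22.1 ± 3.07 to 33.7 ± 3.56 CPM (log2 0.61, SE 0.13, adjusted p = 0.00389). With library totals Tpm4 and Tpm2 were not called, at log2 0.05 and 0.28. Of the tropomyosin TPM, Tpm3 made up 23.0%, 21.1% and 16.7% in N1 to N3 and 28.2%, 27.4% and 26.2% in W1 to W3, higher in every mouse. These genes each make several isoforms, which the gene-level tables do not separate.

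Tpm1 turned on 1 library. It stood at 234, 268 and 437 CPM in N1 to N3 and 351, 347 and 433 CPM in W1 to W3, so it was higher after wounding in mice 1 and 2 and level in mouse 3. It was not called (log2 0.27, SE 0.20, adjusted p = 0.299). It was called in the paired fit (adjusted p = 0.0327) and, at log2 0.58, with N3 left out (adjusted p = 0.00565, range 0.00565 to 0.996).

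Cnn2 encodes the calponin of non-muscle cells, an actin-binding protein, and lies at chr10:79988584-79996062. It fell from 205, 195 and 219 CPM to 145, 140 and 138 CPM (log2 -0.55, SE 0.09, adjusted p = 0.000470). Every wounded library was below every non-wounded one. Cnn2 and Cfl2 were the members called lower under TMM.

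Non-muscle myosin II is a motor whose heavy chains each carry an essential and a regulatory light chain. Of its 6 genes Myl12a alone was called under TMM, and its sign changed with library totals. Myh9, the heavy chain of isoform IIA, made up 98.9% ± 0.275 of the TPM of Myh9 and Myh10 in non-wounded and 98.5% ± 0.480 in wounded libraries. Myh9 stood at 533, 510 and 717 CPM and then at 610, 604 and 815 CPM, and was not called (log2 0.21, SE 0.16, adjusted p = 0.304). The groups overlapped, but each mouse was higher after wounding, by log2 0.19, 0.25 and 0.18, and Myh9 was called in the paired fit (adjusted p = 0.0356, range 0.0356 to 0.966). Myh10, the heavy chain of isoform IIB, stood at only 2.28 ± 0.198 and 3.38 ± 0.578 CPM (log2 0.57, SE 0.26, adjusted p = 0.0962).

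Among the light chains, Myl6, the essential light chain and the most abundant myosin gene by TPM, stood at 349 ± 14.5 and 325 ± 23.9 CPM (log2 -0.10, SE 0.09, adjusted p = 0.382). It was called lower under 3 of the 5 scalings, at log2 -0.43 for library totals, -0.25 for upper-quartile factors and -0.45 for log2(TPM + 1) (range of adjusted p 0.00245 to 0.735). The regulatory light chain genes Myl12a and Myl12b overlap on the same strand of chromosome 17 and are near-identical, so their separate values are uncertain. Myl12a went from 409 ± 3.23 to 488 ± 13.4 CPM under TMM (log2 0.26, SE 0.08, adjusted p = 0.0248) and was at -0.07 with library totals. It lost its call with N1, W1, N2 or W2 left out (adjusted p = 0.0539, 0.0671, 0.0615 and 0.117, range 0.0125 to 0.509). Myl12b stood at 86.3 ± 12.9 and 68.6 ± 10.9 CPM (log2 -0.33, SE 0.14, adjusted p = 0.0764). It was called lower in the paired fit (adjusted p = 0.0107), with N3 left out (adjusted p = 0.0423) and under 3 of the 5 scalings, at log2 -0.66 for library totals, -0.48 for upper-quartile factors and -0.73 for log2(TPM + 1) (range of adjusted p 0.00276 to 0.260). Summed, Myl12a and Myl12b stood at 495 ± 9.67 and 557 ± 23.8 CPM and were not called (log2 0.17, SE 0.09, adjusted p = 0.123).

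Myl9, the regulatory light chain best known from smooth muscle, was scarce and uneven. It stood at 2.43, 1.98 and 4.81 CPM in N1 to N3 and 3.14, 1.01 and 1.46 CPM in W1 to W3, higher after wounding in mouse 1 and lower in mice 2 and 3 (log2 -0.72, SE 0.47, adjusted p = 0.232). It was called lower with W1 left out, at log2 -1.31 (adjusted p = 0.0459), and on log2(TPM + 1), also at -1.31 (adjusted p = 0.0134, range 0.0134 to 0.710). The smooth muscle actin gene Acta2 stood at 9.25, 5.45 and 18.9 CPM and then at 1.31, 0.799 and 1.40 CPM. Both genes were highest in N3. The defining smooth muscle markers Myh11, Des and Lmod1 stood under 1 CPM in every library. The summed smooth muscle and pericyte list of 12 genes ranged from 77.7 to 97.7 CPM before and 72.0 to 85.6 CPM after. Most of that sum was Smtn, at 49.8 ± 3.10 and 54.0 ± 4.97 CPM, and Cspg4, at 21.5 ± 5.72 and 16.6 ± 3.62 CPM. Of the 7 tested genes, Acta2 was called lower (log2 -3.27, adjusted p = 0.000243). Rgs5 was called higher, at 0.254 ± 0.254 and 1.09 ± 0.494 CPM. The part of such cells in the Myl9 value was not tested.

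Adhesion and LIM-domain genes split. Tes encodes testin, a LIM protein of focal adhesions and cell contacts, at chr6:17065149-17105828. It rose 2.13-fold from 18.5, 22.6 and 23.6 to 41.6, 47.0 and 49.4 CPM (log2 1.09, SE 0.12, adjusted p = 7.00e-05), with no overlap. Vcl encodes vinculin, which links talin and alpha-catenin to actin. It stood at 87.5, 106 and 144 CPM and then at 182, 170 and 218 CPM (log2 0.76, SE 0.17, adjusted p = 0.00380). Each wounded library was above all non-wounded ones, and Vcl passed under 4 of the 5 scalings, the exception being log2(TPM + 1) at 0.42 (adjusted p = 0.120, range 3.14e-08 to 0.224). Vcl overlaps Ap3m1 on the other strand (mean 1487 counts against 3431). Pdlim7, encoding the PDZ and LIM protein enigma, was low but higher in all 3 mice, at 4.44 ± 0.732 and 8.65 ± 1.80 CPM (log2 0.96, SE 0.22, adjusted p = 0.00504). It too missed the threshold on log2(TPM + 1) (adjusted p = 0.0994, range 0.000419 to 0.204).

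Zyxin and eplin were not called. Zyx, encoding a LIM protein recruited to stretched filaments, stood at 99.3, 87.5 and 131 CPM and then at 113, 96.0 and 135 CPM, with overlapping groups (log2 0.11, SE 0.16, adjusted p = 0.586). It overlaps Epha1 on the other strand (mean 2811 counts against 2549 for Zyx). Lima1, encoding eplin, which stabilises filaments, stood at 180, 188 and 236 CPM and then at 180, 144 and 167 CPM (log2 -0.30, SE 0.12, adjusted p = 0.0706). Lima1 was called lower in the paired fit (adjusted p = 0.0332), with N1 left out (adjusted p = 0.0421) and under 3 of the 5 scalings, at log2 -0.62 for library totals, -0.45 for upper-quartile factors and -0.65 for log2(TPM + 1) (range of adjusted p 0.00186 to 0.244).

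In some of these genes mouse 3 differed from mice 1 and 2 by more than wounded differed from non-wounded tissue. That held in both conditions for Tpm1, Flna, Zyx and Myh9, whose log2 values between conditions were 0.27, 0.07, 0.11 and 0.21. For Vcl, at 0.76, the change between conditions was larger. For Myl9, at -0.72, the difference between mice was larger in size in the non-wounded libraries only. In the non-wounded libraries mouse 3 exceeded mice 1 and 2 by log2 0.80 for Tpm1, 0.58 for Vcl, 0.50 for Flna, 0.49 for Zyx, 0.46 for Myh9 and 1.13 for Myl9. In the wounded libraries the same difference was 0.31 for Tpm1, 0.31 for Vcl, 0.31 for Flna, 0.38 for Zyx, 0.42 for Myh9 and -0.29 for Myl9. These genes were picked after their values were seen. For Actb and Actg1 the difference was 0.05 and 0.05 in non-wounded and -0.03 and 0.08 in wounded libraries.

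**Figure D4:**
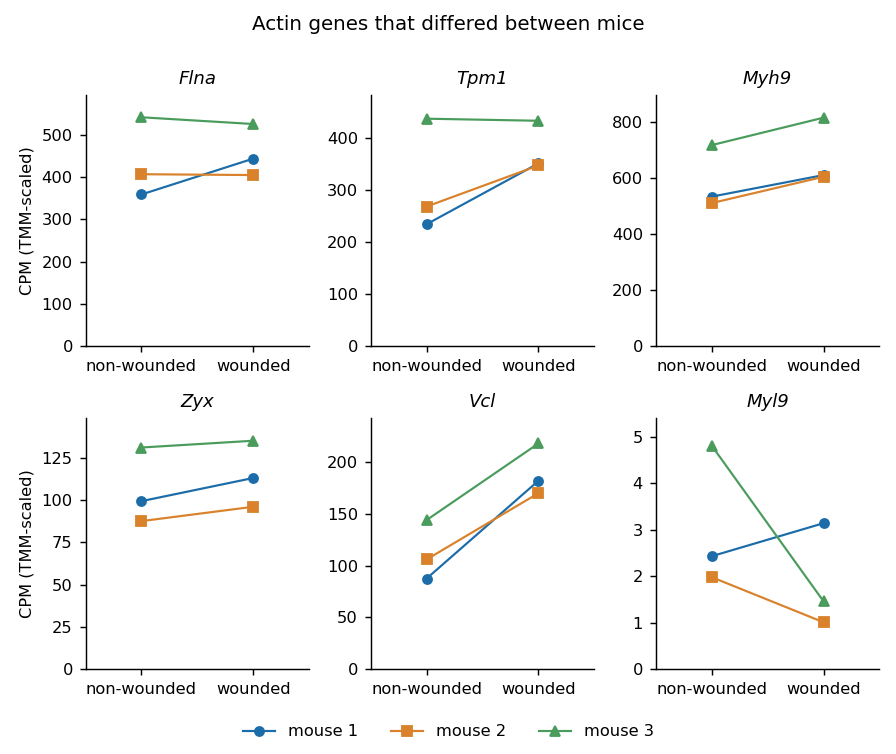
CPM (y axis, TMM-scaled, from 0) of 6 genes in non-wounded and wounded epidermis (x axis), with 1 line per mouse. Mouse 3 lies above the other two in both conditions for Flna, Tpm1, Myh9, Zyx and Vcl, and its Myl9 line goes from 4.81 to 1.46.

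The wider actin pathway was read from 6 further lists, against 24.0% of all genes called higher and 24.4% lower under TMM. The counts given with library totals stand against 13.5% of all genes higher and 41.4% lower. Crosslinkers and membrane linkers had 9 of 20 higher and 6 lower, with a median log2 value of 0.40, against 7 and 6 with library totals. Ezr encodes ezrin, which ties filaments to the membrane, and rose from 575 ± 34.6 to 1747 ± 169 CPM (log2 1.60, SE 0.11). Tagln2, encoding a calponin relative, rose from 257 ± 18.5 to 426 ± 14.1 CPM (log2 0.73, SE 0.09). The muscle filamin gene Flnc, picked after its values were seen, stood at 0.589 ± 0.299 and 5.22 ± 1.52 CPM (log2 3.12, SE 0.42). The part of the skeletal muscle markers given above in the Flnc value was not tested.

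Adhesion genes outside the members moved both ways, with 10 of 25 higher and 6 lower (4 and 9 with library totals). Bcar1, which encodes the scaffold p130Cas, rose from 38.4 ± 7.67 to 122 ± 16.7 CPM (log2 1.67, SE 0.15), and Pxn, encoding paxillin, from 35.0 ± 3.98 to 96.3 ± 18.3 CPM (log2 1.46, SE 0.14). Ajuba, encoding a LIM protein related to zyxin, fell from 85.4 ± 4.28 to 27.3 ± 1.53 CPM (log2 -1.65, SE 0.10).

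Of the other Arp2/3 subunits and activators, 7 of 16 were higher and 3 lower (2 and 7 with library totals). Wipf2, of the WASP-interacting family, rose by log2 0.69 (SE 0.10), the WAVE complex gene Abi1 by 0.54 (SE 0.08) and the alternative subunit gene Arpc1a by 0.41 (SE 0.09). The list of other formins, with Evl and Spire1, had 2 of 12 higher and 2 lower (1 and 4 with library totals). The formin genes Inf2 and Fmnl3 moved apart, at log2 -0.63 (SE 0.09) and 0.98 (SE 0.20), and the nucleator gene Spire1 rose by 0.57 (SE 0.14). Of the other monomer, turnover and capping genes 5 of 22 were higher and 5 lower (2 and 13 with library totals). Twf1, encoding the monomer-binding twinfilin, rose from 39.5 ± 2.84 to 93.5 ± 7.81 CPM (log2 1.24, SE 0.10). The capping protein gene Capza2 rose from 141 ± 14.8 to 209 ± 8.45 CPM (log2 0.57, SE 0.10).

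**Figure D5:**
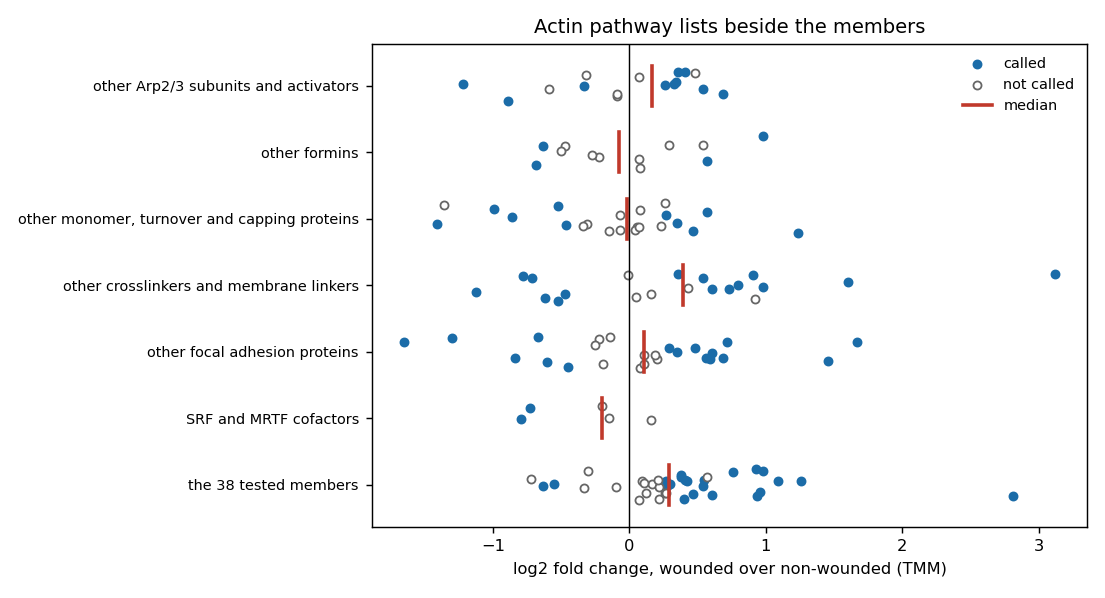
Log2 fold changes (x axis, wounded over non-wounded, TMM) of the tested genes of 6 further actin pathway lists and of the 38 tested members (y axis, points spread vertically for sight). Filled points were called, and red bars are medians, from -0.20 for the SRF and MRTF list to 0.40 for the crosslinkers and membrane linkers.

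Coro1a, encoding the coronin of leukocytes, fell from 19.3 ± 1.40 to 7.22 ± 1.60 CPM (log2 -1.41, SE 0.17). Was, Lcp1 and Lsp1, which encode leukocyte actin regulators and were picked after their values were seen, fell by 1.22 (SE 0.34), 0.62 (SE 0.11) and 0.52 (SE 0.12) on the log2 scale, each in 3 of 3 mice. Other regulators known from leukocytes were not called under TMM, with Fmnl1 at log2 0.07 and Cotl1 at 0.04, both below 0 with library totals, and Wipf1 at -0.32. Wipf1 was called lower with library totals at -0.64 (adjusted p = 0.00984) and with upper-quartile factors at -0.47 (adjusted p = 0.0434). T cell markers were lower in the same libraries, with 5 of 6 called and a sum of 176 to 209 CPM before and 127 to 147 CPM after. Of 8 neutrophil markers, the 4 with enough counts to be tested went the other way and were called higher. Ly6g had 0 counts in every library. Mpo, Elane and Ltf stood under 1 CPM in every library and were not tested. The sum of the 8 was 2.24 to 4.72 CPM before and 9.93 to 14.2 CPM after. The macrophage and Langerhans cell markers were mixed, with 4 of 7 tested higher and 2 lower. The part of any of these cells in the values of the leukocyte genes was not tested.

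Of the 7 genes of the list of SRF and its cofactors, 5 were tested. Under TMM 0 were called higher and 2 lower, beside 24.0% and 24.4% of all genes. With library totals 0 were higher and 3 lower. Srf fell from 259 ± 24.3 to 149 ± 4.71 CPM (log2 -0.79, SE 0.09, adjusted p = 9.01e-05). Mkl2, which encodes the cofactor MRTF-B, fell from 38.6 ± 2.08 to 23.2 ± 0.618 CPM (log2 -0.73, SE 0.10, adjusted p = 0.000231). Both were lower in 3 of 3 mice and called under all 5 scalings. Mkl1, encoding MRTF-A, stood at 28.3 ± 1.88 and 31.5 ± 3.61 CPM and was not called (log2 0.16, SE 0.12, adjusted p = 0.301). Transcript levels do not report the activity of these proteins.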

How the data were processed

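Epidermis was separated from dermis with trypsin, and poly-dT capture was used for the libraries, per the labels' protocols. The authors deposited 2 tables per gene symbol, of estimated counts and of TPM, made with Salmon on build mm10, per the file headers and the submitters' processing notes. No source used here gives versions, annotation release or strand use. Between 47.1% and 48.3% of non-zero estimated counts per library are not whole, so reads shared by near-identical genes were divided by estimation. In 13 of the 39 members counts are whole (within 0.01) in every library.

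Counts were rounded and filtered with filterByExpr, leaving 16079 genes. TMM factors were 1.12 in non-wounded and 0.887 to 0.898 in wounded libraries. The main test was the quasi-likelihood test in edgeR 4.0.16 (R 4.3.3) without a mouse term, adjusted by Benjamini-Hochberg over all genes. Each SE was taken as the size of the log2 fold change over the square root of F. The 5 scalings are TMM, RLE, library totals, upper quartile, and limma 3.58.1 on log2(TPM + 1) for genes with a mean of at least 1 TPM. DESeq2 1.42.0, other filters, another pseudocount, a mouse block and left-out libraries were also tried. The main test was checked on simulated data.

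Libraries with the same number come from the same mouse, per the labels, and are therefore paired. Across genes, their deviations from the group means correlated at 0.152, 0.0409 and 0.167 in mice 1, 2 and 3. Replicates differed beyond counting noise (chi-square per gene 13.7 to 37.1).

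The members and lists were chosen with earlier results of these data known. All members are described, with the 3 genes of smallest p and at least 1 CPM from each of 6 further lists, except for items that are not reported here. Gene coordinates are from GENCODE M21 on GRCm38 (mm10), and promoters from RefSeq on GRCm38.p6, where Actb and Diaph1 had no entry.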

Additional observations from a re-analysis of the deposited data

How the results depend on the processing

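Scaling was the main limit. Genes called higher numbered 3859 and lower 3917 with TMM, and 2168 and 6655 with library totals. On log2(TPM + 1), log2(TPM + 0.1) and log2(TPM + 1) without a filter, 1746, 1726 and 1561 genes were higher. Members called higher numbered 21 with TMM, 8 with library totals and 6 in each of the 3 TPM fits. Members called lower numbered 2 with TMM, 6 with library totals, 5 with upper-quartile factors, 4 without a filter on low counts and 7 in each TPM fit. Of all genes, 24.4% were lower with TMM, 41.4% with library totals, 31.4% with upper-quartile factors and 34.6% on log2(TPM + 1). Without the filter on low counts 4156 of 28550 genes were lower. With the mouse as a replicate block, 25 members were higher and 4 lower, beside 26.2% and 27.1% of all genes. With single libraries left out, 17 to 21 members were higher and 2 to 3 lower, among 3153 to 3597 higher and 3147 to 3600 lower genes. These last are counts of genes, not shares of the genes tested.

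The sign changed with library totals for Actb (-0.03), Gsn (-0.20), Capg (-0.06), Actr2 (-0.23), Actr3 (-0.11), Arpc5 (-0.16), Vasp (-0.05), Actn1 (-0.11), Actn4 (-0.07), Flna (-0.25), Tpm1 (-0.06), Myh9 (-0.12), Myl12a (-0.07), Zyx (-0.21) and Mkl1 (-0.17). It changed in all 3 TPM fits for Actb (-0.07), Wdr1 (-0.01), Gsn (-0.23), Actr2 (-0.24), Actr3 (-0.03), Arpc5 (-0.14), Vasp (-0.23), Actn1 (-0.15), Flna (-0.23), Tpm1 (-0.004), Myh9 (-0.02), Myl12a (-0.10), Zyx (-0.16) and Mkl1 (-0.11), and with upper-quartile factors for Gsn (-0.03), Actr2 (-0.05), Flna (-0.08) and Zyx (-0.03). With single libraries left out, Flna ranged from -0.06 (N1) to 0.25 (N3), with -0.04 for W3, and Zyx from -0.02 (W3) to 0.29 (N3), with -0.01 for N2. Summed with Myl12a, Myl12b was at 0.17. Why the libraries differ in their scaling factors was not tested. Depth limits Vil1, Myh10 and Myl9, whose counts are low.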
